A study of Mus musculus with 6 samples.

Results

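The genes of cholesterol and fatty acid synthesis, with their control and efflux genes, were followed across sorted cells of the pressure-overloaded mouse heart. The set was chosen by gene symbol and lists 36 genes. Each gene was represented by the probe set with exactly 1 symbol and the highest mean over the 6 arrays, and had to exceed the array median at least once to be kept. A probe set of this kind was found for 35 of the 36 genes and all 35 were kept, among 12257 genes kept in all. Acat2 is not analysed here. Of the 35 genes, 31 lay above the median of all 6 arrays, and Sqle, Lss, Scd1 and Elovl6 lay below it on the endothelial sham array alone. The gene closest to the limit was Sqle, whose highest value lay 1.38 log2 units above the median of its array.

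The mice were black swiss males, 8 to 10 weeks old, and cells were sorted from the left ventricle 1 week after surgery. Transaortic constriction (TAC) narrows the aorta and loads the left ventricle with pressure, and sham operated mice served as controls, with 3 mice per surgery. From each surgery 3 populations were sorted: cardiac fibroblasts traced by Tie2cre, cardiac fibroblasts without that trace, and cardiac endothelial cells. Tie2cre expresses Cre from the Tek (Tie2) promoter, which is active in endothelium and also in some blood cell lineages. The labels do not name the reporter allele, do not say whether the endothelial cells were also sorted by the trace, and do not say whether the RNA of several mice was pooled. Each of the 6 groups has 1 array, so no difference between surgeries or between lineages has a replicate, and none of these was tested. The RNA measured is bulk RNA, in which fewer cells of a type and less RNA per cell cannot be told apart.

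Cells make cholesterol from acetyl-CoA through mevalonate, farnesyl diphosphate, squalene and lanosterol, and they make fatty acids from the same precursor through malonyl-CoA. The transcription factors encoded by Srebf1 and Srebf2 drive both branches: when membranes run low in sterol, the escort protein Scap carries them to the Golgi for cleavage, and when sterol is plentiful, the Insig proteins hold them back. Sterol excess acts through oxysterols on the liver X receptors (LXR), among them the product of Nr1h3, which raise the sterol exporters Abca1 and Abcg1.

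SREBP proteins bind sterol response elements, often next to NF-Y, which binds the CCAAT box. The 250 bases before each start that RefSeq gives were therefore searched on both strands for the sterol response element TCACNCCAC, the NF-Y box CCAAT and the E box TCACGTGA. The sequences are those of RefSeq on GRCm38.p6, and 27 of the 35 genes had an entry. A CCAAT box stood before 20 of these 27 genes (74.1%), beside 37.5% of 27025 genes with an entry. The sterol response element in this spelling stood before 1 of the 27 genes, Hmgcs1 (1.22% of all genes), and the E box before 0 of them (0.907% of all genes). Shown here are the promoters of Hmgcs1, the only one with the sterol element, of Idi1, whose level was highest on the endothelial TAC array, and of Fasn, whose level was more than 2-fold higher after TAC in endothelial cells. Capitals mark the motif matches, 5′ to 3′ on the strand of the gene, and they are matches of letters and not measured binding sites. The Hmgcs1 stretch lies at chr13:119690101-119690350 on the plus strand, the Idi1 stretch at chr13:8885356-8885605 on the plus strand, and the Fasn stretch at chr11:120824548-120824797 on the minus strand. The Fasn start used lies 619 bases inside the outermost 5′ end of the RefSeq gene, so its stretch overlaps the annotated gene, while the Hmgcs1 and Idi1 stretches end at the outermost start.
Hmgcs1: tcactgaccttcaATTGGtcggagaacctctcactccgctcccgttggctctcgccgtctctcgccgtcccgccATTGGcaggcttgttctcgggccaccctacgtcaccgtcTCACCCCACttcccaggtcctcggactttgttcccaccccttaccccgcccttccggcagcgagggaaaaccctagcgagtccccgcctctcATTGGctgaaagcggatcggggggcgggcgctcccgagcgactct
Idi1: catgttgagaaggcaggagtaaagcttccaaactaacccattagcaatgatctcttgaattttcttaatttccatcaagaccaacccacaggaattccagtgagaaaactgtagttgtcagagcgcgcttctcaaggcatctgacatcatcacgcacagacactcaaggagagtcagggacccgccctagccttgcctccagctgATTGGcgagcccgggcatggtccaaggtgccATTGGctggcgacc
Fasn: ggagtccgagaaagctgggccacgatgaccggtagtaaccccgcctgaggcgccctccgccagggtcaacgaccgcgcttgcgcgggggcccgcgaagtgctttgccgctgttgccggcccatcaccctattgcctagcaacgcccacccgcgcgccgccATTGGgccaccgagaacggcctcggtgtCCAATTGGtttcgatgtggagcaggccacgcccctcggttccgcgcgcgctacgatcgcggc
In Hmgcs1 the sterol element lay 137 to 129 bases before the start, with NF-Y boxes read on the other strand at 237 to 233, 176 to 172 and 45 to 41 bases before it. In Idi1 the NF-Y boxes lay at 45 to 41 and 14 to 10 bases before the start. Fasn had 3 boxes, of which the pair at 62 to 58 and 59 to 55 bases before the start overlap and face opposite ways.

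All levels below are log2 values of the normalized probe set intensity, and all differences are on the same log2 scale unless a fold is given. A level of 1 gene is compared only across arrays, since different probe sets bind with different strength. The array medians lay close together (6.74 to 6.85). The 18S ribosomal RNA stood at 12.04 on the untraced TAC array and at 14.11 to 14.64 on the other arrays, and the median of 9 spike-in probe sets stood at 12.08 to 12.24 on the endothelial arrays and 11.09 to 11.69 on the fibroblast arrays. The endothelial TAC array also carried fibroblast transcripts: relative to endothelial sham, all 12 fibroblast markers were higher by 0.76 to 4.43 with a median of 2.78, and their summed level was 15.57 there against 12.49 at sham and up to 17.06 on the fibroblast arrays. The 12 endothelial markers had summed levels of 16.76 and 16.53 on the endothelial arrays and 11.91 to 12.49 on the fibroblast arrays. Of 10 detected cardiomyocyte markers 9 were lower after TAC in the endothelial cells, with a summed level of 13.62 at sham and 12.47 after TAC against 10.52 to 10.95 on the fibroblast arrays. Of 7 adipocyte markers with a probe set, Adipoq, Cidec, Lep, Retn and Plin4 lay at or below the array median on all 6 arrays, and the lipase genes Lipe and Pnpla2 were called higher in endothelial cells, with fibroblast minus endothelial differences of -3.21 (limma adjusted p = 0.01) and -1.81 (limma adjusted p = 0.0421).

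**Figure D1:**
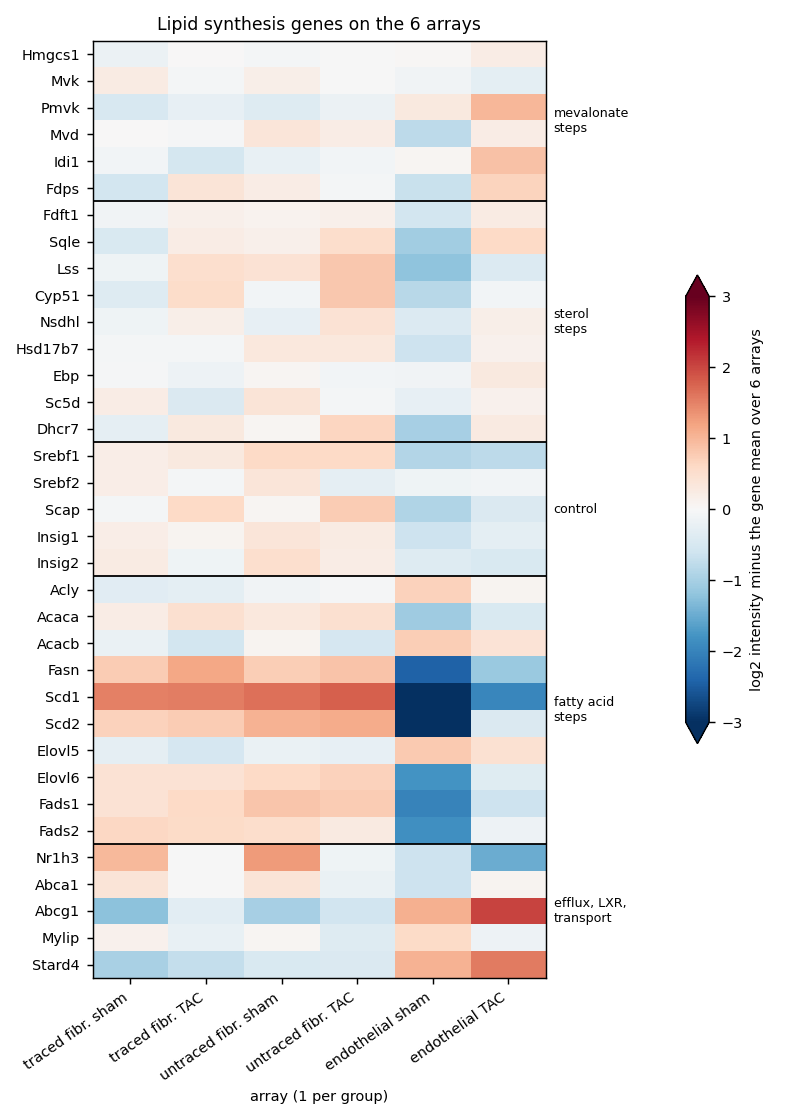
Level of each of the 35 genes on each of the 6 arrays, as the log2 intensity minus the mean of that gene over the 6 arrays, with genes grouped by role. The lowest cells are those of Scd1, Scd2 and Fasn on the endothelial sham array, and Abcg1 and Stard4 are highest on the endothelial TAC array.

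The first comparison asks how the lipid synthesis genes of fibroblasts differ between TAC and sham hearts. Of the 35 genes, 0 passed 2-fold upwards in both fibroblast populations, beside 4.19% of all genes, and 0 were at least 2-fold lower in both, beside 1.79% of all genes. With 35 genes these counts are near the background and set the list apart in neither direction. Taken alone, traced fibroblasts had 0 genes higher (6.03% of all genes) and 0 lower (2.7%) by 2-fold, and untraced fibroblasts 0 higher (4.86%) and 1 lower (2.95%), Nr1h3. The median difference was 0.05 in traced and 0.01 in untraced fibroblasts, beside 0.07 and 0.02 over all 12257 genes. Differences stayed under 1.5-fold in both populations for 24 of the 35 genes (68.6%, beside 72.4% of all genes). The same arrays had much higher proliferation transcripts after TAC, with medians of 2.46 and 3.08 over 20 detected genes, of which 18 passed 2-fold in both populations. At 1.5-fold, 2 genes were higher in both populations, Cyp51 and Scap (8.62% of all genes), and 1 was lower, Nr1h3 (4.79% of all genes).

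Along the mevalonate steps the fibroblast differences were mixed in sign. Hmgcs1, which makes the first committed intermediate, differed by 0.20 in traced and 0.05 in untraced fibroblasts on its brightest probe set, which stood at 11.72 to 12.12 over the 6 arrays. Its other 4 probe sets gave larger values, from 0.49 to 0.74 in traced and 0.43 to 0.85 in untraced fibroblasts. The kinase genes Mvk (-0.31 and -0.19) and Pmvk (0.23 and 0.21) differed in opposite directions, and the decarboxylase gene Mvd differed by -0.05 and -0.14. Idi1, the isopentenyl diphosphate isomerase gene, gave -0.45 in traced and 0.15 in untraced fibroblasts, and Fdps, the farnesyl diphosphate synthase gene, gave 0.93 and -0.29. In both cases the populations disagreed in sign on this probe set and not on the second one, which gave 0.10 and 0.53 for Idi1 and 0.09 and 0.18 for Fdps. The second Fdps probe set had a mean level of 3.85, far below the array medians.

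Among the sterol steps, 6 of 9 genes were higher in both fibroblast populations and 3 lower, with medians of 0.31 and 0.38. Of all 12257 genes, 5231 were higher in both and 4068 lower in both. Cyp51, which removes a methyl group from lanosterol, had the largest mean difference of all synthesis genes over the fibroblast populations. Its levels were 8.54 at sham and 9.48 after TAC in traced fibroblasts, 8.85 and 9.73 in untraced fibroblasts, and 8.11 and 8.86 in endothelial cells. All TAC values of Cyp51 lay above the sham value of the same population, and its other probe sets gave 1.30 and 0.92 in one case and 0.44 and 0.11 in the other for traced and untraced fibroblasts. The squalene epoxidase gene Sqle (0.68 and 0.38), the lanosterol synthase gene Lss (0.64 and 0.39), the last reductase gene Dhcr7 (0.55 and 0.58) and Nsdhl, a sterol dehydrogenase gene (0.31 and 0.66), were also higher in traced and untraced fibroblasts after TAC. The squalene synthase gene Fdft1 (0.26 and 0.07) and the isomerase gene Ebp (-0.12 and -0.13) differed little, Hsd17b7 stood at 8.23 and 8.22 in traced fibroblasts, and Sc5d, a sterol desaturase gene, was lower (-0.65 and -0.45).

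The control genes split in fibroblasts. Scap, the escort of the SREBP proteins, stood at 9.30 at sham and 9.96 after TAC in traced fibroblasts, 9.42 and 10.14 in untraced fibroblasts, and 8.47 and 8.93 in endothelial cells. Both fibroblast TAC arrays were above both fibroblast sham arrays for Scap, while its second, dimmer probe set gave -0.08 in traced and -0.32 in untraced fibroblasts. Srebf2, the main driver of the sterol branch, stood at 10.10 at sham and 9.83 after TAC in traced fibroblasts, 10.26 and 9.63 in untraced fibroblasts, and 9.76 and 9.80 in endothelial cells. For Srebf2 the fibroblast TAC arrays were below the fibroblast sham arrays. Srebf1, the main driver of the fatty acid branch, stood at 9.76 at sham and 9.86 after TAC in traced fibroblasts, 10.16 and 10.17 in untraced fibroblasts, and 8.70 and 8.79 in endothelial cells. Srebf1 differed between surgeries by 0.09, 0.01 and 0.09 in traced fibroblasts, untraced fibroblasts and endothelial cells.

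Insig1 and Insig2 encode the sterol sensors that retain Scap in the endoplasmic reticulum, and Insig1 is itself a target of SREBP. Insig1 levels were 10.80 at sham and 10.68 after TAC in traced fibroblasts, 10.96 and 10.83 in untraced fibroblasts, and 9.98 and 10.30 in endothelial cells. Insig2 levels were 10.48 at sham and 10.09 after TAC in traced fibroblasts, 10.73 and 10.44 in untraced fibroblasts, and 9.82 and 9.77 in endothelial cells. Both were slightly lower on the TAC arrays of fibroblasts, and every fibroblast array stood above every endothelial array for Insig1 and Insig2.

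The fatty acid genes were nearly level between surgeries in fibroblasts, with medians of 0.04 and 0.08 over 10 genes. The stearoyl-CoA desaturase genes differed by 0.02 and 0.14 (Scd1) and 0.06 and 0.09 (Scd2), and the elongase gene Elovl6 by -0.01 and 0.11. The fatty acid synthase gene Fasn was higher by 0.41 in traced and 0.13 in untraced fibroblasts. The carboxylase genes Acaca (0.25 and 0.16) and Acacb (-0.36 and -0.58), whose products make malonyl-CoA for synthesis and for the control of fatty acid oxidation, differed in opposite directions. Acly, which makes cytosolic acetyl-CoA from citrate, differed by 0.05 and 0.07. The desaturases of polyunsaturated fatty acids, Fads1 (0.17 and -0.06) and Fads2 (-0.06 and -0.25), and the elongase gene Elovl5 (-0.24 and -0.06) differed by less than 0.3 in either population.

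Nr1h3, which encodes LXR alpha, had the largest fibroblast difference of the set, and it was a lower level after TAC. Its levels were 9.98 at sham and 9.01 after TAC in traced fibroblasts, 10.29 and 8.88 in untraced fibroblasts, and 8.38 and 7.53 in endothelial cells. Each TAC array stood below the sham array of its population, by 1.96-fold in traced fibroblasts, just short of 2-fold, by 2.66-fold in untraced fibroblasts and by 1.8-fold in endothelial cells. The sterol exporter gene Abca1, an LXR target, was lower in fibroblasts (-0.40 and -0.59) and higher in endothelial cells (0.69). Mylip, a ubiquitin ligase gene that LXR also raises, was lower in all 3 populations (-0.36, -0.46 and -0.74). Abcg1, another exporter and LXR target, went the other way, with 0.92, 0.42 and 0.97, and its second probe set gave -0.02, 0.04 and 1.74.

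Among 20 detected genes of a further list of sterol sensing, LXR and oxysterol metabolism, 1 was at least 2-fold higher in both fibroblast populations (4.19% of all genes). In the same list 2 were at least 2-fold lower in both (1.79% of all genes). Apoe, the apolipoprotein E gene and an LXR target, stood at 13.16 at sham and 11.63 after TAC in traced fibroblasts, 13.17 and 10.57 in untraced fibroblasts, and 9.52 and 8.96 in endothelial cells. It was 2.88-fold lower after TAC in traced and 6.05-fold lower in untraced fibroblasts. Cyp27a1, a mitochondrial sterol hydroxylase gene that makes an oxysterol, stood at 11.34 at sham and 9.81 after TAC in traced fibroblasts, 11.72 and 9.91 in untraced fibroblasts, and 5.93 and 5.90 in endothelial cells. It was 2.88-fold and 3.51-fold lower in the fibroblasts, and its endothelial levels lay below the array median at both surgeries. Ch25h, whose product makes another oxysterol in the endoplasmic reticulum, stood at 7.50 at sham and 10.27 after TAC in traced fibroblasts, 7.51 and 10.45 in untraced fibroblasts, and 6.53 and 9.11 in endothelial cells. Ch25h was higher in all 3 populations, by 6.83-fold, 7.66-fold and 6-fold. Macrophages also carry Apoe, Nr1h3 and Ch25h, and 5 of 8 detected macrophage and leukocyte markers were lower after TAC in both fibroblast populations, with summed levels of 11.22 and 10.69 in traced and 10.52 and 10.12 in untraced fibroblasts at sham and TAC. Of 9 mural cell markers 6 were lower after TAC in both fibroblast populations, and Kcnj8, Abcc9, Myh11 and Vtn were at least 2-fold lower in both, with summed levels of 13.23 and 13.17 in traced and 13.32 and 12.98 in untraced fibroblasts. The part of either marker list in these differences was not tested.

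**Figure D2:**
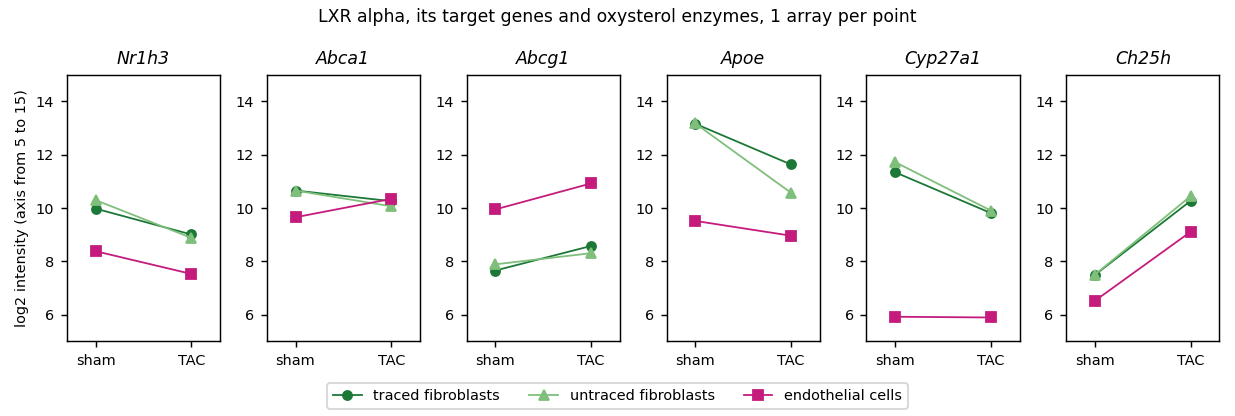
Level (log2 intensity, axis from 5 to 15) of Nr1h3, Abca1, Abcg1, Apoe, Cyp27a1 and Ch25h on the sham and TAC array of each population, 1 array per point. Nr1h3, Apoe and Cyp27a1 are lower on the TAC array of both fibroblast populations, and Ch25h is higher on the TAC array of all 3 populations.

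The second comparison asks the same of endothelial cells. On the endothelial TAC array 28 of the 35 genes stood above the endothelial sham array, beside 63.0% of all genes, and 9 stood at least 2-fold higher, beside 10.9% of all genes. None of the 35 was at least 2-fold lower, beside 1.73% of all genes. The median difference was 0.69, beside 0.18 over all genes. The 9 genes were Fdps, Sqle and Dhcr7 of the sterol branch and Fasn, Scd1, Scd2, Elovl6, Fads1 and Fads2 of the fatty acid branch. Just short of 2-fold stood Mvd (0.99) and Abcg1 (0.97), and the smallest of the 9 was Dhcr7 (1.27). At 1.5-fold, 19 were higher, beside 24.7% of all genes, and 3 lower, beside 7.42%. All fibroblast markers were higher on this array too, as given above, and so were all 8 detected macrophage and leukocyte markers, by 0.14 to 1.74 with a median of 0.55 and summed levels of 10.28 at sham and 11.01 after TAC. The part of fibroblast or leukocyte RNA in these differences was not tested. The proliferation list also had its largest median here, 3.65, with 19 of 20 genes at least 2-fold higher.

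**Figure D3:**
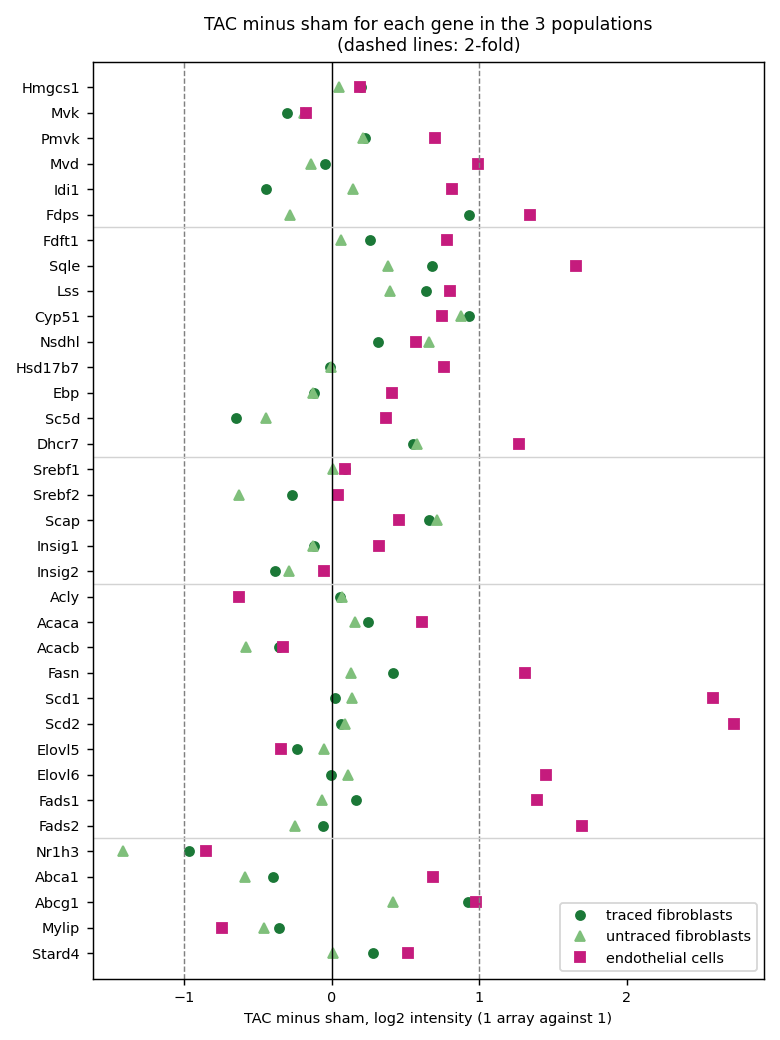
TAC minus sham (log2 intensity, 1 array against 1) for each of the 35 genes in traced fibroblasts, untraced fibroblasts and endothelial cells, with dashed lines at 2-fold. The 9 genes past the right line are all endothelial squares, and the only point past the left line is Nr1h3 in untraced fibroblasts.

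In the sterol branch 14 of the 15 genes were higher on the endothelial TAC array, beside 63.0% of all genes, and Mvk was the exception (-0.17). Sqle, a rate-controlling step of sterol synthesis, stood at 7.15 at sham and 7.83 after TAC in traced fibroblasts, 7.74 and 8.12 in untraced fibroblasts, and 6.55 and 8.21 in endothelial cells. It was 3.15-fold higher after TAC, from a sham value below the array median, and the endothelial TAC array held the highest Sqle level of the 6 arrays. Fdps stood at 7.32 at sham and 8.25 after TAC in traced fibroblasts, 8.09 and 7.80 in untraced fibroblasts, and 7.20 and 8.54 in endothelial cells. The endothelial TAC array was again the highest. The second Fdps probe set gave an endothelial difference of -0.03, at a mean level of 3.85, far below the array medians. Dhcr7 stood at 9.22 at sham and 9.77 after TAC in traced fibroblasts, 9.55 and 10.13 in untraced fibroblasts, and 8.47 and 9.74 in endothelial cells. For Dhcr7 the endothelial TAC level lay just below that of the traced TAC fibroblasts. Smaller differences were those of Idi1 (0.81), Lss (0.80), Fdft1 (0.78), Hsd17b7 (0.76), Cyp51 (0.75), Pmvk (0.70), Nsdhl (0.57), Ebp (0.41), Sc5d (0.37) and Hmgcs1 (0.19). The dimmer probe sets of Sc5d gave -0.50 and -0.86, against the sign of the brightest one, and those of Hmgcs1 gave -0.04 to 0.86.

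In the fatty acid branch 7 of 10 genes were higher on the endothelial TAC array, beside 63.0% of all genes. Scd2 had the largest difference, with levels of 11.18 at sham and 11.24 after TAC in traced fibroblasts, 11.52 and 11.61 in untraced fibroblasts, and 7.32 and 10.04 in endothelial cells. It stood 6.6-fold above the sham array, and its other 2 probe sets gave 1.67 and 2.11. Scd1 stood at 11.97 at sham and 11.99 after TAC in traced fibroblasts, 12.12 and 12.25 in untraced fibroblasts, and 5.92 and 8.51 in endothelial cells. The endothelial sham level was below the array median, the TAC level was 6-fold higher, and both endothelial arrays stood far below all fibroblast arrays. The second Scd1 probe set gave 2.11.

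Fads2 levels were 9.70 at sham and 9.64 after TAC in traced fibroblasts, 9.60 and 9.35 in untraced fibroblasts, and 7.23 and 8.93 in endothelial cells. Elovl6 levels were 8.52 at sham and 8.51 after TAC in traced fibroblasts, 8.67 and 8.78 in untraced fibroblasts, and 6.28 and 7.73 in endothelial cells. Fads1 levels were 11.89 at sham and 12.05 after TAC in traced fibroblasts, 12.29 and 12.23 in untraced fibroblasts, and 9.45 and 10.83 in endothelial cells. For each of these genes the 4 fibroblast arrays lay close together and the endothelial TAC array lay between them and the endothelial sham array. Other probe sets of these genes gave smaller endothelial differences, down to -0.01 for Fads2, -0.03 for Elovl6 and 0.20 for Fads1. The lowest Elovl6 value came from a dim probe set, with a mean level of 5.10, and the next brightest Elovl6 probe set gave 1.08. With the mean of all probe sets the differences were 0.73 for Fads2, 0.83 for Elovl6 and 0.79 for Fads1, short of 2-fold. Fasn levels were 10.27 at sham and 10.68 after TAC in traced fibroblasts, 10.25 and 10.38 in untraced fibroblasts, and 7.10 and 8.40 in endothelial cells, from a single probe set. Acaca was also higher (0.61), while Acly (-0.63), Elovl5 (-0.34) and Acacb (-0.33) were lower. The next brightest probe sets of Acly gave 0.05 and 0.06, and that of Elovl5 gave 0.16.

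On the brightest probe sets, the branches differed in where the endothelial TAC level stood relative to fibroblasts. Of the 15 sterol genes, 8 had an endothelial TAC level above the endothelial sham level and above both fibroblast TAC levels, while 0 of the 10 fatty acid genes did, beside 19.1% of all genes. These 8 were Hmgcs1, Pmvk, Idi1, Fdps, Fdft1, Sqle, Ebp and Sc5d, each on its brightest probe set. Fibroblast minus endothelial after TAC, where negative values put endothelial cells higher, was only -0.08 for Fdft1. The other Hmgcs1 probe sets gave -0.27 to 0.56, and those of Sc5d gave 0.51 and 0.47. Those of Idi1 (-0.55), Fdft1 (-0.13 to -0.47) and Fdps (-0.16, a dim probe set) stayed negative. Idi1 on the endothelial TAC array was at 228% of the mean fibroblast TAC level and Sqle at 117%, against 117% and 53.9% between the sham arrays. For all 10 fatty acid genes the endothelial TAC level lay within the span of the endothelial sham and fibroblast TAC levels, beside 65.2% of all genes. Among them Acly, Elovl5 and Acacb had endothelial sham levels above those of fibroblasts and were lower after TAC, each on its brightest probe set. Some other probe sets lay outside this span, with fibroblast minus endothelial after TAC of -1.76 and -0.605 (Acly), -1.10 (Elovl5) and -0.64 (Fads1). On these, the endothelial TAC level also stood above endothelial sham, by 0.05 and 0.06 for Acly, 0.16 for Elovl5 and 0.20 for Fads1. Scd1 went from 1.44% of the fibroblast level at sham to 8.17% after TAC, Scd2 from 6.13% to 38.4% and Fasn from 11.2% to 22.9%. The 12 fibroblast markers went from 0.989% to 11.6% at sham, with a median of 3.33%, to 9.70% to 64.5% after TAC, with a median of 22.9%. The difference between the branches was not tested, since each rests on the same 2 endothelial arrays.

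**Figure D4:**
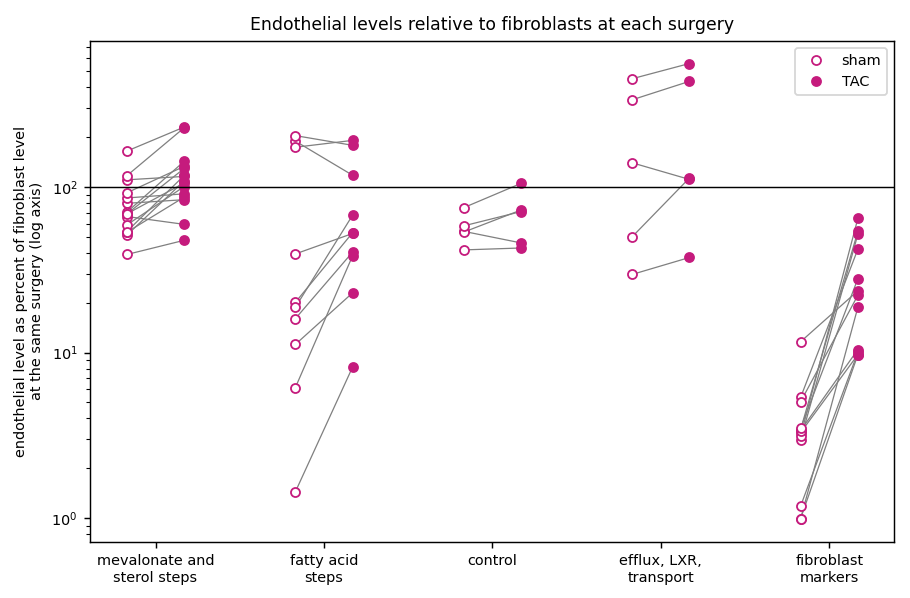
Endothelial level of each gene as a percent of the mean fibroblast level at the same surgery (log axis), at sham (open points) and after TAC (filled points), by role, with the fibroblast markers for comparison. Fibroblast markers and the low fatty acid genes go up together towards the line at 100%, and all but 5 of the 15 sterol genes lie above that line after TAC.

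Of the control genes, Srebf1 (0.09), Srebf2 (0.04) and Insig2 (-0.05) were nearly level in endothelial cells. Insig1 (0.32) and Scap (0.46) were somewhat higher after TAC, and the second, dimmer Scap probe set gave -0.26. Stard4, which carries cholesterol between membranes, was higher by 0.52. Of 11 detected further genes of sterol synthesis and uptake 1 was at least 2-fold higher on the endothelial TAC array, the sterol methyl oxidase gene Msmo1 (1.02), and 0 in both fibroblast populations. Of 19 detected further genes of fatty acid and triglyceride synthesis 1 was, Fads3 (1.40), and again 0 in both fibroblast populations. Of the 20 further control genes, 3 were: Ch25h, the oxysterol binding protein gene Osbpl5 (1.14) and Trib1, a pseudokinase gene (1.09). Of all genes, 10.9% were at least 2-fold higher on the endothelial TAC array and 4.19% in both fibroblast populations. The medians of these lists were 0.17, 0.12 and 0.18 in endothelial cells, beside 0.18 over all genes.

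The third comparison asks whether lineage goes with lipid synthesis. Between traced and untraced fibroblasts, 0 of 35 genes differed at least 2-fold in the same direction at both surgeries. Of all genes, 0.0326% were higher and 0.0408% lower in traced cells by this rule. With shares this low, a count of 0 does not set the list apart. The median of traced minus untraced was -0.18 at sham and -0.18 after TAC, beside -0.11 and -0.07 over all genes. Of the 35 genes, 23 were lower in traced fibroblasts at both surgeries, beside 46.1% of all genes, and 4 were higher at both, beside 17.4%. The largest sham differences were those of Fdps (-0.77 at sham and 0.45 after TAC), Sqle (-0.59 and -0.29) and Lss (-0.56 and -0.32). All 8 detected macrophage and leukocyte markers were higher in traced cells at both surgeries, with medians of 0.32 and 0.46, and their part was not tested.

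The fourth comparison sets fibroblasts against endothelial cells. Scd1, Fasn and Srebf1 were higher in fibroblasts and Abcg1 and Stard4 in endothelial cells, by limma over all 12257 genes with Benjamini-Hochberg adjustment. The traced and untraced arrays of a surgery were averaged first, so each cell type has 2 values, 1 per surgery. The p-values rest on the spread between the surgeries, but not on that of the single gene alone. In every fit limma draws each gene's own spread towards that of all genes. In all, 3 of 35 genes were called higher in fibroblasts, beside 11.5% of all genes, and 2 higher in endothelial cells, beside 6.5% of all genes. The median difference of the 35 genes was 0.38, beside 0.22 over all genes. Markers of cardiomyocytes ran with the endothelial arrays, with 5 of 10 called higher there, and their part was not tested.

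Scd1, which makes monounsaturated fatty acids, differed most, by 29.2-fold. Its difference was 4.87 (standard error 0.88, limma adjusted p = 0.0287), with adjusted p from 0.00302 to 0.0367 over the alternatives, and it was 3.57 without the endothelial sham array and 6.16 without the endothelial TAC array. Fasn was 6.24-fold higher in fibroblasts. Its difference was 2.64 (standard error 0.49, limma adjusted p = 0.0304), with adjusted p from 0.00319 to 0.0414 over the alternatives, and it was 1.99 without the endothelial sham array and 3.29 without the endothelial TAC array. A fit without an endothelial array keeps 1 endothelial value, which is assumed to vary like the 2 fibroblast values. Srebf1 was 2.37-fold higher and gave 1.24 (standard error 0.22, limma adjusted p = 0.0264). For Srebf1 the adjusted p ranged from 0.0132 to 0.0738 over the alternatives, and the call was lost without the endothelial sham array, where 1 endothelial value remains and the difference was 1.20, close to that with all arrays. At sham the fatty acid branch had a median difference of 2.37, with Scd2 at 4.03, Fads1 at 2.64, Fads2 at 2.42 and Elovl6 at 2.32, and after TAC the median was 0.92. The adjusted p of these genes was 0.114 for Scd2, 0.0627 for Fads1, 0.159 for Fads2 and 0.102 for Elovl6 (limma).

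On the endothelial side, Stard4 levels were 8.48 at sham and 8.76 after TAC in traced fibroblasts, 9.01 and 9.02 in untraced fibroblasts, and 10.49 and 11.01 in endothelial cells. Both endothelial arrays stood above all 4 fibroblast arrays. The difference was -1.94 (standard error 0.28, limma adjusted p = 0.0179), with adjusted p from 0.00368 to 0.0314 over the alternatives. Abcg1 levels were 7.66 at sham and 8.58 after TAC in traced fibroblasts, 7.89 and 8.31 in untraced fibroblasts, and 9.95 and 10.92 in endothelial cells. These groups did not overlap either, and the difference was -2.33 (standard error 0.44, limma adjusted p = 0.0323). For Abcg1 the adjusted p ranged from 0.00211 to 0.131, and the call was lost with the mean of its probe sets, at -1.41, and without the endothelial TAC array, at -1.84. Of the other fatty acid genes, Elovl5 (-1.03 at sham and -0.84 after TAC), Acacb (-0.80 and -0.94) and Acly (-0.92 and -0.24) stood higher in endothelial cells at both surgeries and were not called.

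**Figure D5:**
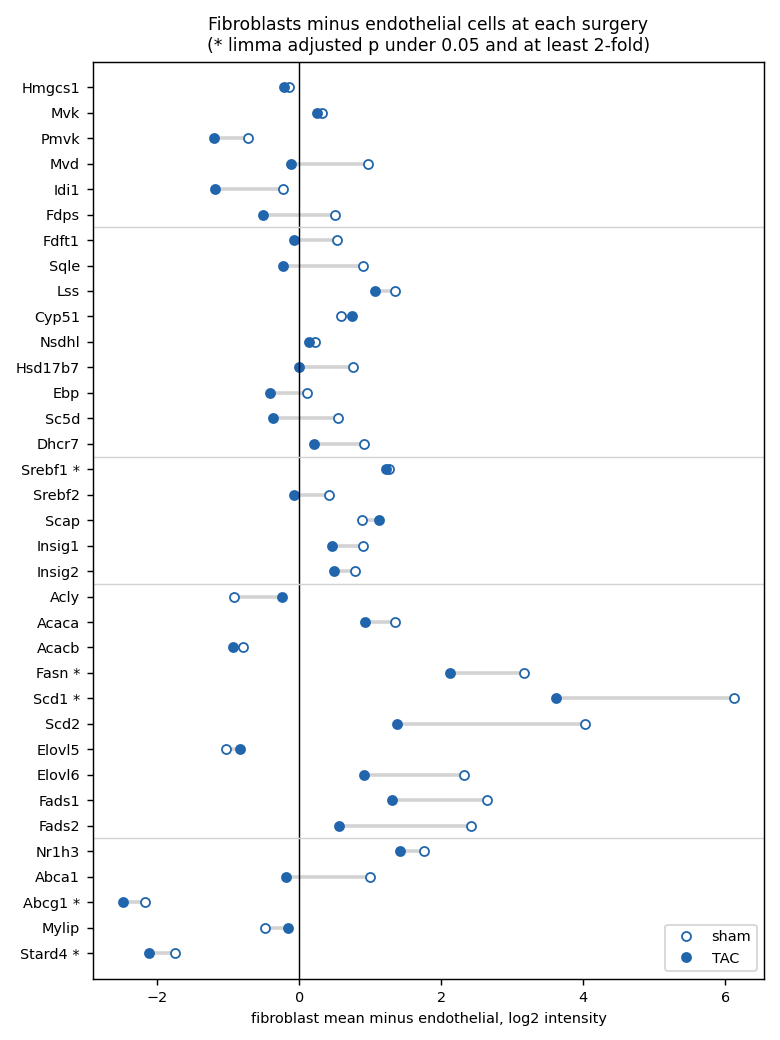
Fibroblast mean minus endothelial level (log2 intensity) for each of the 35 genes at sham (open points) and after TAC (filled points), with asterisks at genes called by limma. Scd1 spans from 6.12 to 3.61, and Abcg1 and Stard4 lie to the left at both surgeries.

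The sterol genes were not called in either direction. At sham all 9 genes of the sterol steps stood higher in fibroblasts, with a median of 0.59, beside 62.7% of all genes and a median of 0.28. After TAC 4 of 9 did, with a median of -0.01, beside 58.2% of all genes and a median of 0.14. The widest of them was Lss (1.35 and 1.07), with limma adjusted p = 0.0954. Among the mevalonate genes Pmvk (-0.72 and -1.20) and Idi1 (-0.23 and -1.19) stood higher in endothelial cells. Nr1h3 (1.75 and 1.41) and Scap (0.89 and 1.12) stood higher in fibroblasts at both surgeries and were not called. With surgery as a block, which takes the difference between surgeries out of the spread, 10 genes were called higher in fibroblasts, beside 18.7% of all genes: Lss, Srebf1, Scap, Acaca, Fasn, Scd1, Scd2, Elovl6, Fads1 and Nr1h3. Without the endothelial TAC array, on which fibroblast markers were high, 8 were called higher in fibroblasts, beside 14.0% of all genes, with the spread taken from the 2 fibroblast values alone: Srebf1, Acaca, Fasn, Scd1, Scd2, Elovl6, Fads1 and Fads2.

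The further genes of these pathways gave calls on both sides. Of all genes, 11.5% were called higher in fibroblasts and 6.5% higher in endothelial cells. Of 19 genes of fatty acid and triglyceride synthesis 5 were higher in fibroblasts: malic enzyme Me1, which supplies NADPH, at 3.76 (limma adjusted p = 0.00705), Elovl4 at 2.69 (limma adjusted p = 0.0171), the acetyl-CoA synthetase gene Acss2 at 2.27 (limma adjusted p = 0.0104), the acyltransferase gene Gpam at 1.64 (limma adjusted p = 0.0213) and Acsl3 at 1.55 (limma adjusted p = 0.0215). In the same list 2 were higher in endothelial cells, Thrsp, a regulator of lipogenesis, at -4.91 (limma adjusted p = 0.00382) and the elongase gene Elovl7 at -2.64 (limma adjusted p = 0.0132). Of 11 genes of sterol synthesis and uptake, the lipoprotein receptor gene Scarb1 was higher in endothelial cells at -4.14 (limma adjusted p = 0.00997) and the reductase gene Tm7sf2 in fibroblasts at 1.61 (limma adjusted p = 0.017). Of 20 control genes limma called 5, all towards fibroblasts, among them Cyp27a1 at 4.78 (limma adjusted p = 0.0135), Osbpl5 at 2.33 (limma adjusted p = 0.0312) and Mbtps1, a protease gene that cleaves the SREBP proteins, at 1.46 (limma adjusted p = 0.0263).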

How the data were processed

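RNA of 6 sorted samples was hybridised to Affymetrix mouse arrays, 1 array each. The deposited tables hold a linear intensity for each of 45101 probe sets, and the submitters' processing notes name RMA, which subtracts background, normalizes arrays to one distribution and summarises probes. The scale was read from the values, and RMA's version is not given in the sources used here. RMA shrinks differences between dim values, and it makes no call of presence. Log2 of the intensity was taken with no further normalization. Symbols were those of the platform's annotation, brought up to date through gene identifiers in the RefSeq gene table (99.4% found). Of the probe sets, 34958 had 1 symbol, 932 several and 9211 none listed.

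The test of fibroblasts against endothelial cells was limma 3.58.1 (R 4.3.3) over 12257 genes, with calls at a 2-fold difference and an adjusted p below 0.05. It was run first on simulated data, with independent noise as wide as that between traced and untraced arrays and no difference between surgeries. That run therefore does not show how the test behaves with the spread between surgeries that it uses here. The other comparisons set 1 array against 1 and were counted at 2-fold, so the number of arrays limits the precision. No pair of arrays held identical values. All 35 measured genes are named, with values on all arrays for those counted or called and for the control genes. Genes outside the set come from fixed lists, and those named were at least 2-fold different or called, at most 5 per list and direction. The set and all lists were chosen with earlier results of these data known. Alternatives were the probe set rule, the detection filter, centring of arrays, the fold threshold, surgery as a block and leaving out arrays.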

Additional observations from a re-analysis of the deposited data

Results flagged for a closer look

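For 2 genes both fibroblast populations differed one way between TAC and sham and endothelial cells the other way, each by at least 0.29 log2 units, the standard deviation over genes of the difference between traced and untraced arrays. Sc5d, a sterol desaturase gene, gave -0.65 in traced fibroblasts, -0.45 in untraced fibroblasts and 0.37 in endothelial cells, where its dimmer probe sets gave -0.50 and -0.86. Abca1, a sterol exporter gene, gave -0.40 in traced fibroblasts, -0.59 in untraced fibroblasts and 0.69 in endothelial cells. Its other 2 probe sets had the same signs, but in traced fibroblasts they gave only -0.063 and -0.061, short of the 0.29 used here. The difference between the cell types was not tested, since each of these values sets 1 array against 1. The share of all genes that meet this rule was not counted, so the count of 2 does not set the list apart.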

How the results depend on the processing

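By replicate number, no paired analysis was possible because the labels give every group the same single number, and the cell types were paired by surgery instead, with surgery as a block. Of 66 counts of the 35 genes under an alternative, 56 stayed within 1.5 times the reported count or stayed at 0. All 20 medians stayed within 0.29, and 0 called values changed sign. Many of these counts were 0 both as reported and under the alternative. Dropping the detection filter could not change the fold counts, since all 35 genes had passed it. The limit of 0.29 is a spread of single genes and is wide for a median, so this tally is a weak check. At 1.5-fold in place of 2-fold, 2 genes were higher and 1 lower in both fibroblast populations, and 19 were higher and 3 lower in endothelial cells (24.7% and 7.42% of all genes). In the untraced population alone 1 gene was lower, Nr1h3. With surgery as a block 10 genes were called higher in fibroblasts, and leaving out 1 array in turn gave 2 to 8, the lowest without the endothelial sham array and the highest without the endothelial TAC array, each with 1 endothelial value left that is assumed to vary like the fibroblast values. Genes called higher in endothelial cells numbered 1 with the mean of all probe sets, 4 without probe sets of the suffixes _x_at and _s_at, where Acly and Elovl5 were added, and 1 to 2 without 1 array. Over all genes, 2298 were higher in fibroblasts with the block and 685 to 1715 without 1 array, and 472 to 817 were higher in endothelial cells without 1 array, in each case fewest without the endothelial sham array. The fit without an endothelial array has fewer values, and the cause of the other shifts was not tested. The values carry no detection call, and the fold differences of Scd1, Sqle, Lss and Elovl6, which lay below the array median on the endothelial sham array, rest on dim values.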
